A study of Homo sapiens with 12 samples.

Results

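The genes described here are 48 translation factors and their close regulators among the 58307 named genes of an RNA-seq series on human melanoma cells. A gene was taken when its symbol in the count table equalled a listed symbol exactly, and each of the 48 had 1 such row. They comprise 5 elongation factors, the elongation factor kinase EEF2K, 2 poly(A)-binding proteins, 33 initiation factors, EIF5A and EIF6, the translation-controlled protein TPT1, the regulators LARP1 and PDCD4, and the termination factors ETF1 and GSPT1. A375 and SK-MEL-28, 2 established human melanoma cell lines, were incubated with etoposide, a topoisomerase II poison, or with etoposide + rapamycin, an inhibitor of the kinase complex mTORC1. All 12 libraries therefore received etoposide, and none was untreated or received rapamycin alone. Each of the 4 groups had 3 polyA-enriched libraries, and the dose and duration used for sequencing were not given in the sources used here. The study's methods call the replicates biological, while the labels do not say which cultures they came from, and p-values measure the spread between these samples.

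Initiation factors load the small ribosomal subunit with the initiator tRNA, bring it to the capped mRNA and find the start codon. Elongation factors then deliver each aminoacyl-tRNA and move the ribosome along, and termination factors release the finished protein. The mRNAs of elongation factors, ribosomal proteins and some initiation factors begin with a C and a run of pyrimidines, the terminal oligopyrimidine or TOP motif. mTORC1 is known to control the translation of TOP mRNAs, and LARP1 binds their capped ends. The counts measure mRNA and not translation.

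Library totals were 28189501 to 32499337 counts. The melanocyte pigment genes PMEL, MLANA, TYR, DCT and TYRP1 were near 0 in every library. They had at most 2.99 CPM (counts divided by the TMM-scaled library total) for PMEL, 1.37 for MLANA, 0.196 for TYR, 2.16 for DCT and 1.82 for TYRP1. SOX10, a neural crest factor, had 166 to 579 CPM. The other melanocytic markers looked at were present, with 12.1 to 29.7 CPM for MITF, 56.7 to 106 for S100B and 77.8 to 240 for S100A1. Under etoposide, 434 of 20101 genes (2.16%) differed over 4-fold between the libraries labelled A375 and those labelled SK-MEL-28. The identity of the lines was not tested, and the names below are those of the labels. CPM gives a gene's part of a library, so a change in mRNA per cell and a change in the rest of the library cannot be told apart.

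The starts of the mRNAs are shown first because the responses are later grouped by them. The set of RefSeq starts (GRCh38.p14) used here held 39 of the 48 members. It lacked EEF1D, PABPC1, PABPC4, EIF2S2, EIF3A, EIF3E, EIF3G, EIF3H and EIF3L, which does not mean that RefSeq has no start for them. Each line gives 10 bases before and 20 bases from an annotated start, 5′ to 3′ on the strand of the gene, and capitals mark the run of pyrimidines where it begins with C at the start and holds at least 4 more. The 11 members with this motif at any annotated start are given, each by a start that holds it. EEF1B2 has 2 annotated starts, and the one not shown, chr2:206159599-206159628, lacks the motif.
EEF1A1, chr6:73521013-73521042, minus strand: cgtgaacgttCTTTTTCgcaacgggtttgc
EEF1B2, chr2:206159885-206159914, plus strand: ctcttcgggtCCTTTTTCCTCTCTTCagcg
EEF2, chr19:3985444-3985473, minus strand: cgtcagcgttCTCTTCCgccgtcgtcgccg
TPT1, chr13:45341164-45341193, minus strand: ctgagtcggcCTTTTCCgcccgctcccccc
EIF3D, chr22:36529147-36529176, minus strand: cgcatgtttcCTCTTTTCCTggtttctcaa
EIF3F, chr11:7987327-7987356, plus strand: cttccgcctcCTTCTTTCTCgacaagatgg
EIF3K, chr19:38619178-38619207, plus strand: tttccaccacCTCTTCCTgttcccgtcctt
EIF3M, chr11:32583821-32583850, plus strand: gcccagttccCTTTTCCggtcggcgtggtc
EIF4A2, chr3:186783567-186783596, plus strand: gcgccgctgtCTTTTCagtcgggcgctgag
EIF4B, chr12:53006446-53006475, plus strand: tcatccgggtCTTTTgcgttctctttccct
EIF2S3, chrX:24054946-24054975, plus strand: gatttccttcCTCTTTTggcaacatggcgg

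For comparison, 5 members without the motif at an annotated start are given, 1 elongation factor and 4 initiation factors.
EEF1G, chr11:62573872-62573901, minus strand: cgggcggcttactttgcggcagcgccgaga
EIF2S1, chr14:67360318-67360347, plus strand: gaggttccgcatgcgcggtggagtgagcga
EIF3B, chr7:2354817-2354846, plus strand: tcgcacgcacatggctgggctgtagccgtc
EIF3I, chr1:32222397-32222426, plus strand: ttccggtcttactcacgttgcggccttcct
EIF2B5, chr3:184135348-184135377, plus strand: cagcttccttgcggaagtggtgaccgtgag

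The motif stood at a start of 28.2% of the matched members, against 5.14% of 27305 genes in the RefSeq table and 74.6% of 63 matched ribosomal protein genes. A gene counted when any of its annotated starts held the motif, so genes with more starts had more places for a match. The 39 matched members had 57 starts, and the 27305 genes had 35116. Only the strand of the gene was searched. A match describes these letters and does not show where transcription began in these cells.

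With rapamycin, the 5 elongation factors among the members rose in both cell lines. Most initiation factors outside a part of eIF3 and EIF4B did not. In A375, 28 of the 48 members were called by edgeR's quasi-likelihood test at an adjusted p under 0.05, 19 higher and 9 lower, which is 58.3% against 28.1% of the 18844 genes tested. In SK-MEL-28, 22 were called, 20 higher and 2 lower, which is 45.8% against 19% of 18897 genes. Higher calls made up 14.3% of all genes in A375 cells and 8.83% in SK-MEL-28, and lower calls 13.8% and 10.1%. The 2 groups of libraries did not overlap for 35 members in A375, where this held for 42.6% of all genes, and for 31 in SK-MEL-28, where it held for 35.9%. The lower calls were the less stable part. Their number in A375, 9, was 4 without A375 rapamycin library 3, 5 without etoposide library 3, 6 without etoposide library 2 or rapamycin library 1 or 2, and 4 when genes with a single count were kept. The 2 lower calls in SK-MEL-28 became 6 with library totals and 1 without any 1 of its libraries other than rapamycin library 2, without which there were 3. Most changes were small. A fold change over 1.5 was passed by EEF2 and EEF1D in A375 cells and by EEF2 and EIF3F in SK-MEL-28, where 5.89% and 4.99% of all genes passed both thresholds. Of the 48 members, 16 were higher in both lines by edgeR and EEF2K was lower in both. Another 15 were called in neither and 0 were called in opposite directions. With DESeq2, EIF4G1 and EIF5A were called in both lines with opposite signs, as given below.

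**Figure D1:**
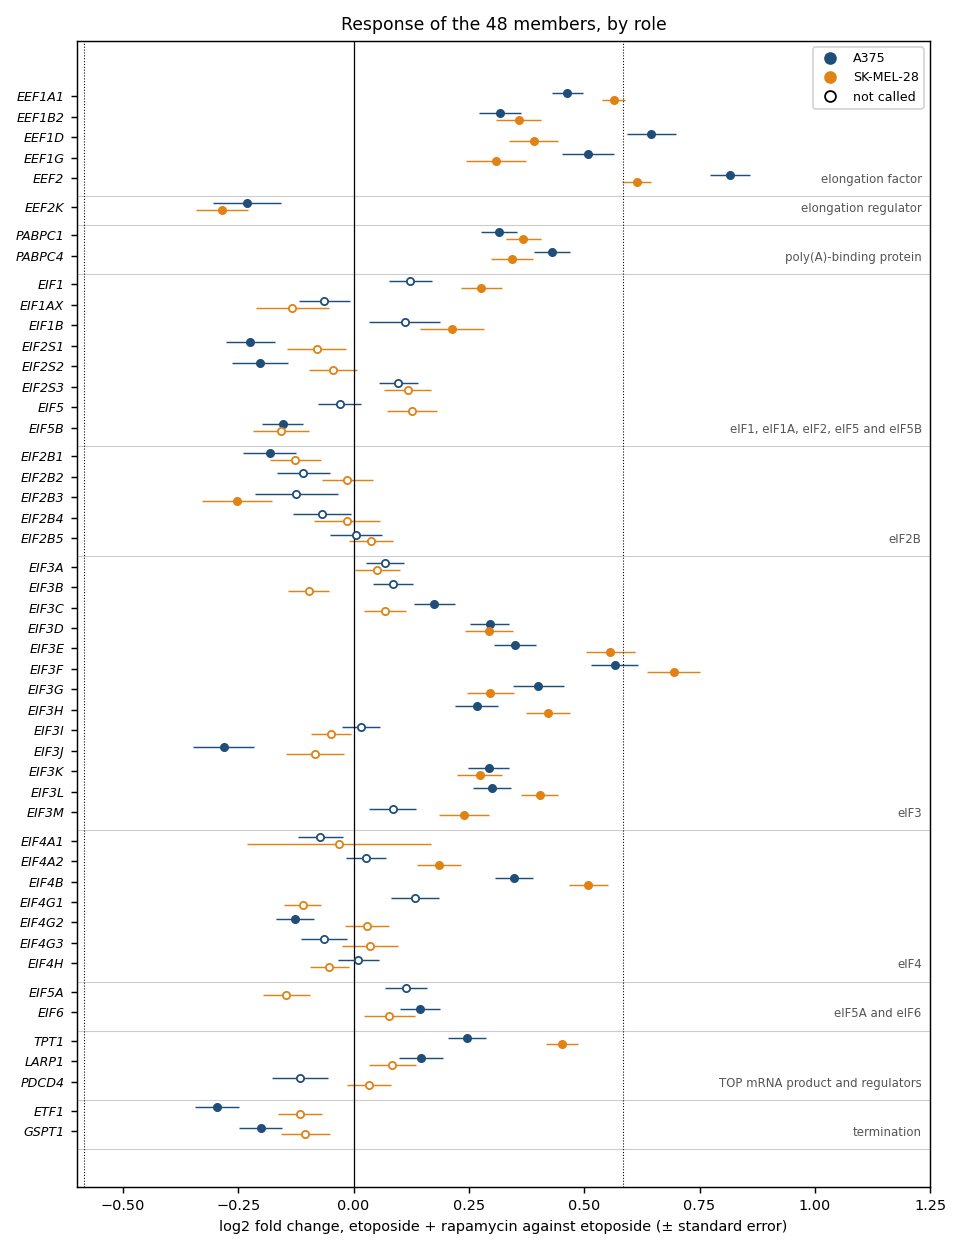
The log2 fold change of each member, etoposide + rapamycin against etoposide, with its standard error, in A375 (blue) and SK-MEL-28 (orange), grouped by role. Filled points have an adjusted p under 0.05 and dotted lines mark a fold change of 1.5. All 5 elongation factors and both poly(A)-binding proteins lie to the right of 0 in both lines, and EEF2 lies farthest right in A375.

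EEF2, the factor that moves the ribosome to the next codon, had the largest rise of the members in A375. Its level was 2751, 2732 and 2591 CPM with etoposide and 4566, 4637 and 4964 CPM with rapamycin added in A375. In SK-MEL-28 the levels of EEF2 were 3148, 3174 and 3086 CPM and, with rapamycin, 4846, 4713 and 4865 CPM. Every library with rapamycin was above every library without it. The log2 fold change of EEF2 was 0.82 ± 0.04 (standard error, as for all fold changes below; adjusted p = 1.6e-07, edgeR) in A375 cells and 0.61 ± 0.03 (adjusted p = 8.3e-08) in SK-MEL-28.

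EEF2K, the kinase that phosphorylates and inactivates the EEF2 protein, went the other way. It had 40.6, 40.9 and 38.1 CPM with etoposide and 35.8, 35.1 and 30.7 CPM with rapamycin in A375. In SK-MEL-28 the levels of EEF2K were 50.1, 50.5 and 48.6 CPM against 41.5, 41.7 and 39.5 CPM. The groups did not overlap in either line, and the log2 fold change of EEF2K was -0.23 ± 0.07 (adjusted p = 0.033, edgeR) in A375 cells and -0.28 ± 0.06 (adjusted p = 0.0036) in SK-MEL-28. The call in A375 was lost without A375 etoposide library 1 (adjusted p = 0.081) or 2 (0.102), or without A375 rapamycin library 2 (0.054) or 3 (0.123), in a range over all alternatives of 0.0097 to 0.123. The ratio of EEF2 to EEF2K CPM was 66.8 to 68.0 under etoposide and 128 to 162 with rapamycin in A375 cells, and 62.9 to 63.5 and 113 to 123 in SK-MEL-28.

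EEF1A1, which carries aminoacyl-tRNA to the ribosome, had the highest level per kilobase of the 48 members under etoposide in both lines, taken per length of the canonical transcript in GENCODE. Its levels were 10234, 10618 and 10496 CPM with etoposide and 14433, 14528 and 14108 CPM with rapamycin in A375. In SK-MEL-28, EEF1A1 had 9324, 9133 and 9318 CPM against 13419, 13938 and 13795 CPM. The groups stood well apart, and the log2 fold change of EEF1A1 was 0.46 ± 0.03 (adjusted p = 1.4e-06, edgeR) in A375 cells and 0.56 ± 0.02 (adjusted p = 4.0e-08) in SK-MEL-28. Another 38 rows named as copies of EEF1A1 held 3.63% of the summed counts, and with these rows summed the fold changes were 0.46 and 0.57.

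EEF1B2, EEF1D and EEF1G are subunits of the exchange factor that reloads EEF1A1 with GTP. EEF1B2 had 254, 273 and 270 CPM with etoposide and 328, 339 and 321 CPM with rapamycin in A375 cells, and 272, 285 and 283 against 345, 374 and 360 CPM in SK-MEL-28. EEF1D had 255, 283 and 264 CPM against 399, 409 and 442 CPM in A375 cells, and 277, 312 and 291 against 376, 398 and 383 CPM in SK-MEL-28. All libraries with rapamycin were above all without it for both genes. The log2 fold change of EEF1B2 was 0.32 ± 0.05 in A375 cells and 0.36 ± 0.05 in SK-MEL-28, and that of EEF1D was 0.65 ± 0.05 and 0.39 ± 0.05. The larger value of EEF1D in A375 did not pass the test of the difference between the lines (adjusted p = 0.069, edgeR).

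EEF1G was the elongation factor with the widest spread between replicates, relative to its level, in SK-MEL-28. It had 1452, 1425 and 1623 CPM with etoposide and 2194, 2205 and 1981 CPM with rapamycin in A375 cells, and 1510, 1796 and 1691 against 2258, 1985 and 1960 CPM in SK-MEL-28. The groups did not overlap, and the log2 fold change of EEF1G was 0.51 ± 0.06 (adjusted p = 4.3e-05, edgeR) in A375 cells and 0.31 ± 0.06 (adjusted p = 0.0050) in SK-MEL-28. Its locus also holds AP002990.1 and TUT1, whose rows had 15.8% as many counts as EEF1G. The row of AP002990.1 varied between libraries, from 1689 counts in SK-MEL-28 etoposide library 2 to 18259 in SK-MEL-28 rapamycin library 3. With the rows of the locus summed the fold change was 0.44 in either line, and the adjusted p in SK-MEL-28 was 9.4e-06 (edgeR). How the counting divided reads between these names is not given in the sources used here.

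The poly(A)-binding proteins coat the mRNA tail and bind the initiation complex. PABPC1 had 1116, 1120 and 1165 CPM with etoposide and 1408, 1426 and 1385 CPM with rapamycin in A375 cells, and 1310, 1250 and 1311 against 1625, 1675 and 1706 CPM in SK-MEL-28. PABPC4 had 332, 336 and 337 CPM against 453, 451 and 445 CPM in A375 cells, and 369, 396 and 382 against 476, 493 and 488 CPM in SK-MEL-28. Neither gene had overlapping groups. The log2 fold change of PABPC1 was 0.32 ± 0.04 in A375 cells and 0.37 ± 0.04 in SK-MEL-28, and that of PABPC4 was 0.43 ± 0.04 and 0.34 ± 0.05, all called.

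TPT1, the mRNA of the translation-controlled tumor protein and a classical TOP mRNA, rose as well. It had 1998, 2143 and 2104 CPM with etoposide and 2486, 2506 and 2386 CPM with rapamycin in A375 cells, and 1901, 1857 and 1902 against 2574, 2653 and 2528 CPM in SK-MEL-28. The groups did not overlap, and the response was 0.25 ± 0.04 on the log2 scale in A375 cells and 0.45 ± 0.03 in SK-MEL-28. LARP1 had 299, 274 and 279 CPM against 322, 311 and 307 CPM in A375, a log2 fold change of 0.15 ± 0.05 (adjusted p = 0.035, edgeR), and 275, 295 and 278 against 312, 290 and 300 CPM in SK-MEL-28, where it was not called (0.08 ± 0.05). The LARP1 call in A375 was lost when any 1 of its 6 libraries other than etoposide library 1 was left out (adjusted p from 0.060 to 0.136), and with library totals it was 0.139. PDCD4, which binds and inhibits the helicase eIF4A, was called in neither line. It had 44.1, 47.3 and 49.9 against 43.2, 44.4 and 42.2 CPM in A375 cells and 61.2, 61.4 and 63.1 against 62.6, 63.5 and 64.4 CPM in SK-MEL-28.

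**Figure D2:**
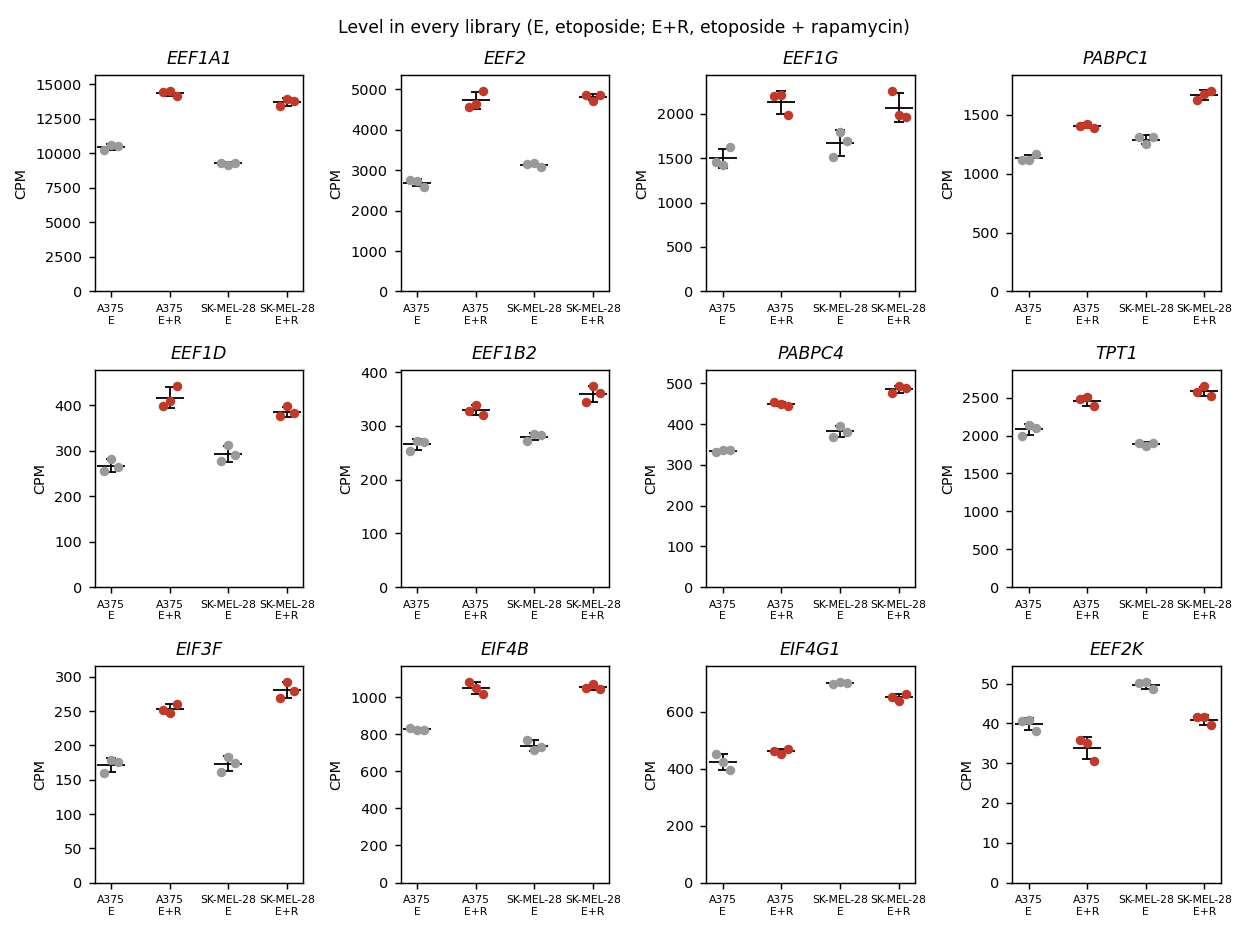
CPM of 12 members in each library, with the mean (bar) and SD of the 3 libraries of a group; gray, etoposide; red, etoposide + rapamycin. The axes start at 0. The red points lie above the gray ones of the same line for all genes shown except EEF2K, where they lie below, and EIF4G1, where they lie below in SK-MEL-28.

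The 5 elongation factors and PABPC1 were compared with the 33 initiation factors. All 6 of the first set were higher in both lines, with a median log2 fold change of 0.49 (0.32 to 0.82) in A375 cells and 0.38 (0.31 to 0.61) in SK-MEL-28. Of the 33 initiation factors, 9 were higher and 6 lower in A375, with a median of 0.03 (-0.28 to 0.57), and 12 were higher and 1 lower in SK-MEL-28, with a median of 0.04 (-0.25 to 0.69). That is 45.5% called against 28.1% of all genes in A375 cells, and 39.4% against 19% in SK-MEL-28. The median over all genes tested was -0.0051 in A375 cells and 0.0053 in SK-MEL-28. The summed level of the 6 genes went from 16060 to 16451 CPM under etoposide to 23201 to 23544 CPM with rapamycin in A375 cells, and from 15842 to 15981 to 22869 to 23083 CPM in SK-MEL-28. That of the 33 initiation factors went from 9026 to 9183 to 9676 to 9917 CPM in A375 cells, and from 9002 to 9782 to 10236 to 10732 CPM in SK-MEL-28. The lowest sum of each SK-MEL-28 group, 9002 and 10236 CPM, came from etoposide library 2 and rapamycin library 3. In these libraries the count of EIF4A1 was low, as described below. These are descriptions of gene sets that were not drawn at random, and no test was made of the difference between them.

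The initiation factors themselves divided. EIF3E, EIF3F, EIF3H and EIF4B, which are commonly listed as TOP mRNAs, were higher in both lines, with medians of 0.35 in A375 cells and 0.53 in SK-MEL-28. The other 29 had medians of 0.01 and 0.03, with 5 higher and 6 lower in A375 cells and 8 higher and 1 lower in SK-MEL-28. That is 37.9% called against 28.1% of all genes in A375 cells, and 31% against 19% in SK-MEL-28. Among these 29, EIF3D, EIF3G, EIF3K and EIF3L were higher in both lines. The list also differs from the starts shown above, as EIF3D, EIF3K, EIF3M, EIF4A2 and EIF2S3 carry the motif and are among the 29. The 79 cytosolic ribosomal protein genes, the largest group of TOP mRNAs, had medians of 0.40 and 0.50, and 76 of them were higher in either line.

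**Figure D3:**
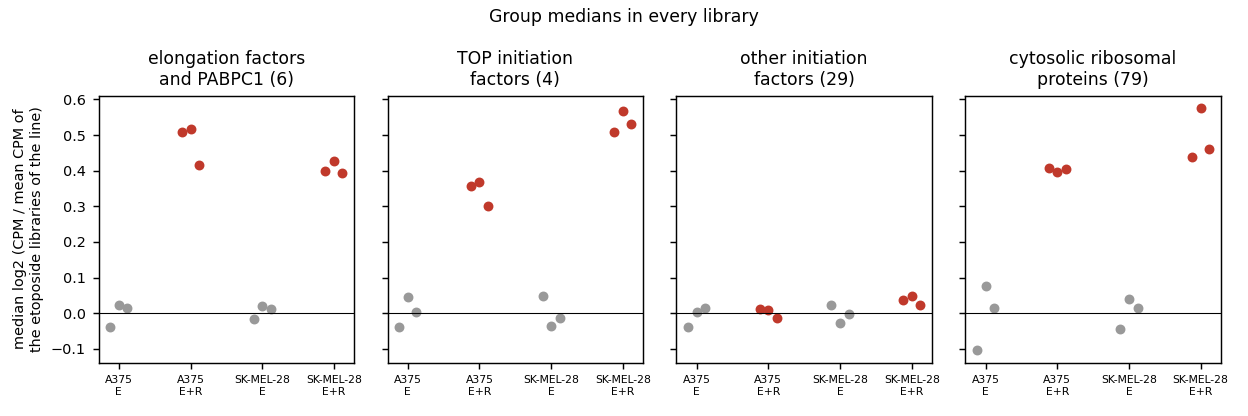
For each library, the median over a gene set of the log2 ratio of CPM to the mean of the etoposide libraries of the same line; gray, etoposide; red, etoposide + rapamycin. With rapamycin the elongation set lies at 0.42 to 0.52 in A375 cells and 0.39 to 0.43 in SK-MEL-28, and the 29 other initiation factors at -0.01 to 0.01 and 0.02 to 0.05.

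eIF3 is the scaffold of 13 subunits that joins the small subunit to the mRNA. In either line 8 of its subunits were higher, and EIF3D, EIF3E, EIF3F, EIF3G, EIF3H, EIF3K and EIF3L were higher in both. Of the 13 subunits, 69.2% were called in A375 cells against 28.1% of all genes, and 61.5% in SK-MEL-28 against 19%. EIF3F had the largest rise of the initiation factors, with 160, 179 and 176 CPM under etoposide and 252, 247 and 261 CPM with rapamycin in A375 cells, and 162, 184 and 174 against 270, 293 and 280 CPM in SK-MEL-28. The groups of EIF3F did not overlap, and its log2 fold change was 0.57 ± 0.05 (adjusted p = 8.3e-06, edgeR) in A375 cells and 0.69 ± 0.06 (adjusted p = 4.4e-06) in SK-MEL-28. EIF3A, EIF3B and EIF3I were called in neither line, with log2 fold changes of 0.07, 0.09 and 0.02 in A375 cells and 0.05, -0.10 and -0.05 in SK-MEL-28. EIF3J, a loosely bound subunit, was the only one called lower, in A375. It had 63.0, 75.5 and 67.9 against 54.1, 56.9 and 58.1 CPM in A375 (log2 fold change -0.28 ± 0.07, adjusted p = 0.0069, edgeR), and 76.5, 70.2 and 70.7 against 65.5, 74.9 and 65.1 CPM in SK-MEL-28, where the groups overlapped (-0.08 ± 0.06). EIF3C shares its reads with the copy EIF3CL, which held 48.4% of their sum, and its value is uncertain for that reason.

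The eIF4 factors unwind the 5′ end and bridge it to the ribosome. EIF4B, a cofactor of the helicase, had 836, 825 and 822 CPM with etoposide and 1083, 1051 and 1014 CPM with rapamycin in A375 cells, and 770, 716 and 732 against 1052, 1069 and 1041 CPM in SK-MEL-28. It rose by 0.35 ± 0.04 and 0.51 ± 0.04 on the log2 scale with no overlap of the groups. Of the other 6, EIF4G2 was lower in A375 (-0.13 ± 0.04) and EIF4A2 higher in SK-MEL-28 (0.19 ± 0.05). With EIF4B counted, 28.6% of the 7 eIF4 factors were called in each line, against 28.1% of all genes in A375 cells and 19% in SK-MEL-28. EIF4A1 was called in neither, and in SK-MEL-28 its count stood apart in 2 libraries. SK-MEL-28 etoposide library 2 and rapamycin library 3 had 18776 and 18875 counts for EIF4A1, against 28122 to 34773 in the other 10 libraries. The same 2 libraries had 16549 and 16768 counts for the overlapping read-through gene SENP3-EIF4A1, which had 35 to 1026 in the others. With the rows of the locus summed, the log2 fold change of EIF4A1 was 0.06 in either line.

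The factors that select the start codon and carry the initiator tRNA moved little. Of eIF1, eIF1A, the eIF2 subunits, eIF5 and eIF5B, EIF2S1, EIF2S2 and EIF5B were lower in A375, with log2 fold changes of -0.22, -0.20 and -0.15. EIF1 and EIF1B were higher in SK-MEL-28, with 0.28 and 0.21. Of these 8 genes, 37.5% were called in A375 cells against 28.1% of all genes, and 25% in SK-MEL-28 against 19%. EIF5B, which joins the ribosomal subunits, had 98.3, 96.4 and 98.2 against 85.2, 89.2 and 87.9 CPM in A375 cells and 124, 111 and 109 against 106, 105 and 98.6 CPM in SK-MEL-28. The groups of EIF5B did not overlap in either line, but the adjusted p was 0.022 in A375 cells and 0.094 in SK-MEL-28 (edgeR). The A375 call of EIF5B was lost without A375 etoposide library 3 (0.070) or rapamycin library 1 (0.105) or 3 (0.066), in a range of 0.0058 to 0.105.

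Of the 5 subunits of eIF2B, which recharges eIF2 with GTP, EIF2B1 was lower in A375 (-0.18 ± 0.06) and EIF2B3 in SK-MEL-28. That is 20% called in each line, against 28.1% of all genes in A375 cells and 19% in SK-MEL-28. EIF2B3 had 20.4, 23.8 and 21.1 against 19.0, 21.0 and 19.7 CPM in A375, where the groups overlapped, and 24.3, 23.8 and 25.6 against 20.9, 20.6 and 20.5 CPM in SK-MEL-28 (log2 fold change -0.25 ± 0.08, adjusted p = 0.036, edgeR). That call of EIF2B3 was lost with any 1 of the 6 libraries left out, at adjusted p from 0.056 to 0.150.

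EIF6, which keeps the ribosomal subunits apart, was higher in A375 (0.14 ± 0.04, adjusted p = 0.026, edgeR) and had 0.08 ± 0.06 with no call in SK-MEL-28. Other names at its locus, mainly the antisense gene MMP24-AS1, had 59.2% as many counts, and with these rows summed the A375 value of EIF6 was 0.08 and no longer called (adjusted p = 0.23).

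The termination factors fell in A375. ETF1, which recognises stop codons, had 296, 318 and 313 CPM with etoposide and 261, 250 and 241 CPM with rapamycin in A375 cells, and 312, 295 and 300 against 283, 285 and 271 CPM in SK-MEL-28. The groups of ETF1 did not overlap in either line. Its log2 fold change was -0.30 ± 0.05 (adjusted p = 6.2e-04, edgeR) in A375 cells and -0.12 ± 0.05 (adjusted p = 0.11) in SK-MEL-28. GSPT1, the GTPase that acts with it, had -0.20 ± 0.05, a call, and -0.10 ± 0.05, no call.

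The response was then set against the starts shown above. Of the 11 members with the motif at a start, 8 were higher and 0 lower in A375 cells and 10 were higher and 0 lower in SK-MEL-28, with median log2 fold changes of 0.30 and 0.36. Of the 28 matched members without it, 4 were higher and 8 lower in A375 cells and 3 higher and 2 lower in SK-MEL-28, with medians of -0.06 and -0.04. Of the 9 members absent from the set of starts used here, 7 were higher and 1 lower in A375 cells, and 7 higher and 0 lower in SK-MEL-28. Their medians were 0.32 and 0.37, and whether they hold the motif is not known here. Among all genes, 14.3% were higher and 13.8% lower in A375 cells, and 8.83% and 10.1% in SK-MEL-28. EIF2S3 carries the motif and was called in neither line (0.10 and 0.12), and EIF4A2 and EIF3M were called in SK-MEL-28 but not in A375. EEF1G rose without the motif at its annotated start. With the motif allowed within 5 bases of a start, 20 members held it (51.3%, against 25.2% of all genes), and their medians were 0.14 and 0.21. Of these 20, 10 were higher and 3 lower in A375 cells, and 11 higher and 1 lower in SK-MEL-28. The 19 matched members without it had medians of -0.07 and -0.05, with 2 higher and 5 lower in A375 cells and 2 higher and 1 lower in SK-MEL-28.

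**Figure D4:**
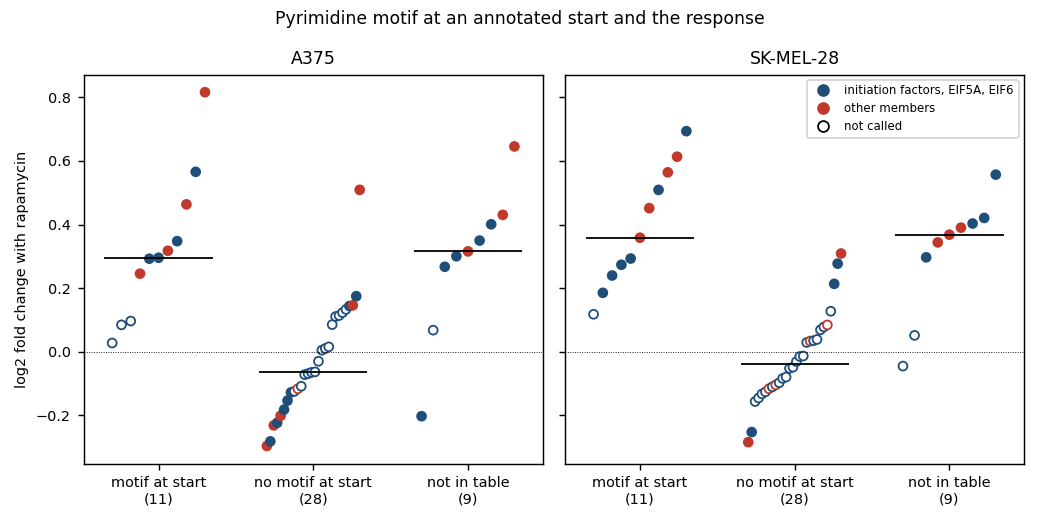
The log2 fold change with rapamycin of each member by whether the pyrimidine motif stands at an annotated start; filled points are called and lines are medians. The medians of members with the motif are 0.30 and 0.36, against -0.06 and -0.04 for those without, and EEF1G is the highest point of the latter. The 9 members absent from the set of RefSeq starts used here have medians of 0.32 and 0.37.

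The difference of the response between the lines was tested in 1 fit of all 12 libraries. Of the 48 members 4 were called (8.33%, against 5.62% of 20101 genes), and each of these calls was lost when 1 of several libraries was left out. EEF2 and TPT1 rose in both lines by unequal amounts, with a difference (SK-MEL-28 minus A375, log2 scale) of -0.19 ± 0.05 for EEF2 and 0.21 ± 0.05 for TPT1. EIF4G1, the scaffold of the cap complex, had 450, 423 and 393 against 463, 452 and 469 CPM in A375 cells and 695, 705 and 700 against 651, 638 and 661 CPM in SK-MEL-28. EIF5A, which helps the ribosome through difficult peptide bonds, had 496, 540 and 524 against 573, 541 and 567 CPM in A375 cells and 651, 650 and 603 against 559, 612 and 554 CPM in SK-MEL-28. EIF4G1 and EIF5A were called in neither line alone by edgeR. The difference was -0.24 ± 0.06 for EIF4G1 and -0.25 ± 0.07 for EIF5A. DESeq2 called both genes in each line, with opposite signs. Its log2 fold changes for EIF4G1 were 0.14 (adjusted p = 0.035) in A375 cells and -0.11 (adjusted p = 0.034) in SK-MEL-28. For EIF5A the DESeq2 values were 0.12 (adjusted p = 0.042) and -0.15 (adjusted p = 0.027).

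Between the lines under etoposide, 25 members differed (52.1%, against 31.8% of all genes), 19 higher and 6 lower in SK-MEL-28, where 15.1% and 16.7% of all genes were. EIF4G1 was the only member past a fold change of 1.5, against 12.5% of all genes, at 0.73 ± 0.04 (adjusted p = 1.3e-09, edgeR). EIF2B5 (0.56 ± 0.05) and EIF4A2 (0.54 ± 0.04) were next among the higher genes, and EIF5 (-0.48 ± 0.05) and EIF1 (-0.29 ± 0.04) were the lowest. EEF1A1 was lower (-0.17 ± 0.03) and EEF2 higher (0.22 ± 0.04) in SK-MEL-28.

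Among 53 other genes of cytosolic translation, 52 were tested, and 10 were higher and 13 lower in A375, 44.2% against 28.1% of all genes. In SK-MEL-28, 6 were higher and 5 lower, 21.2% against 19%, which is near the share of all genes. EEF1A2, a further elongation factor, was higher in A375 (0.44 ± 0.04, adjusted p = 1.5e-05, edgeR). In SK-MEL-28, EEF1A2 was not called (-0.08 ± 0.05). Its difference between the lines, SK-MEL-28 minus A375, was -0.51 ± 0.06 (adjusted p = 1.7e-04, edgeR). EIF4E, which binds the mRNA cap, was lower in both, at -0.48 ± 0.07 (adjusted p = 4.6e-04, edgeR) in A375 cells and -0.24 ± 0.07 (adjusted p = 0.041) in SK-MEL-28. Its inhibitors EIF4EBP1 and EIF4EBP2 were lower in A375, at -0.24 for each, and had -0.19 and -0.17 with no call in SK-MEL-28. DPH5, an enzyme of the pathway that modifies the EEF2 protein, was higher in both, at 0.75 ± 0.09 in SK-MEL-28, past the fold change of 1.5, and 0.39 ± 0.10 (adjusted p = 0.011, edgeR) in A375. EIF4EBP3 passed it in A375 (1.73 ± 0.50) on 3 to 17 counts a library, and had -0.47 ± 0.69 with no call in SK-MEL-28.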

How the data were processed

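The authors enriched polyA RNA, sequenced it, aligned clean reads to GRCh38 with HISAT and estimated expression with StringTie. The deposited table holds raw counts, 1 column for each library and 1 row for each gene, not normalized. The step from StringTie coverage to counts is not given in the sources used here. Of 58312 rows, 5 named no gene (at most 0.0053% of a library's counts) and were left out.

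Counts were tested with edgeR 4.0.16 in R 4.3.3 (filterByExpr with a minimum count of 10, TMM, glmQLFit and glmQLFTest), and p-values were adjusted over the whole table by the Benjamini-Hochberg method. A separate fit was made for each line. The difference between the lines in response, and the lines under etoposide, were tested in fits of all 12 libraries. A gene was called at an adjusted p under 0.05. Standard errors were derived as |log2 fold change| over the root of F. CPM used TMM over all 12 libraries. The tests were checked on simulated counts. Totals of 28189501 to 32499337 counts bound the precision, which is given as the spread between libraries.

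The members and gene lists were chosen with earlier results of these data known. Values in every library are given for the elongation factors, EEF2K, PABPC1, PABPC4, TPT1, LARP1 and PDCD4, for members past both thresholds or called in the test of the difference, and for the 3 largest rises and falls in each line; EIF4B was added for its place in the TOP list. Alternatives were DESeq2 1.42.0, RLE size factors, scaling by library totals, low-count filters (1 count in at least 1 library, or 10 in each), a fold change over 1.5, counts halved and rounded, copies summed, one fit of all libraries, a replicate block, other bounds of the gene sets and each library left out. Summing the rows of a locus, and a block within each line for the difference between the lines, were added after seeing the data.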

Additional observations from a re-analysis of the deposited data

Results flagged for a closer look

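A different response in A375 and SK-MEL-28 was called for 4 members by edgeR's test of the difference itself (SK-MEL-28 minus A375, log2 scale). That is 8.33% of the members against 5.62% of the 20101 genes tested, which is near the share of all genes. The difference was -0.19 for EEF2 (adjusted p = 0.038, range over the alternatives 0.0064 to 0.112). In either line every library with rapamycin had more EEF2 than every library without it. The difference was -0.24 for EIF4G1 (adjusted p = 0.037, range 0.0033 to 0.098) and -0.25 for EIF5A (adjusted p = 0.043, range 0.0036 to 0.109). It was 0.21 for TPT1 (adjusted p = 0.021, range 0.0037 to 0.085). None of the 4 was called without A375 etoposide library 3, A375 rapamycin library 3 or SK-MEL-28 etoposide library 2.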

How the results depend on the processing

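For the 18 members chosen by the rule for values in every library, the direction of the fold change held under the alternatives run, except that PDCD4 in SK-MEL-28 went to -6.861e-04 with library totals. EIF4A1, which is not among these 18, turned from -0.07 to 0.06 in A375 and from -0.03 to 0.06 in SK-MEL-28 with locus rows summed, and was called in neither case. Of the single-gene values of the 18, 588 stayed on their side of the threshold, 63 lost a call and 12 gained one. With a fold change over 1.5 also required, the calls were 2 in A375, 2 in SK-MEL-28, 0 for the difference between the lines and 1 between the lines. With 1 library left out, the calls ranged from 21 to 28 in A375, 18 to 22 in SK-MEL-28, 22 to 26 between the lines and 0 to 7 for the difference. That last count, 4 in the report, was the least stable: 8 with DESeq2 and 1 when genes with a single count were kept.

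Libraries of the same replicate number showed no shared deviation. That does not show that they were cultured or handled apart, on which the labels are silent. Correlations of same-numbered deviations were -0.034 to 3.5e-04 in A375 and -0.065 to -0.0020 in SK-MEL-28, and 0 etoposide libraries correlated best with their own number. With the number as a replicate block, 22 members were called in A375, 21 in SK-MEL-28 and 26 between the lines. The block ended the calls of EIF5B (adjusted p = 0.067, edgeR) and LARP1 (0.062) in A375 and of EIF2B3 (0.064) in SK-MEL-28, gave a lower call of EIF5A in SK-MEL-28 (0.047), and lower calls in A375 went from 9 to 5. For the difference between the lines the outcome depended on how the block was coded: 5 calls with 1 replicate term for both lines, and 0 with a block within each line, an alternative added after seeing the data. The cause was not tested.

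The median of the elongation factors and PABPC1 was 0.39 in A375 with EEF2K and EIF5A counted too, and 0.34 in SK-MEL-28 with library totals or 0.41 with locus rows summed (added after seeing the data). It was 0.47 to 0.52 in A375 and 0.37 to 0.40 in SK-MEL-28 with 1 library left out. The median of the initiation factors lay near 0 throughout. In A375 it was -0.018 with library totals, 0.057 with locus rows summed, 0.022 in one fit of all libraries, 0.068 with EIF5A and EIF6 counted too and 0.019 to 0.053 with 1 library left out. In SK-MEL-28 it was 0.0042 with library totals and 0.014 to 0.092 with 1 library left out.

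With 3 libraries a group and no untreated cells, the data do not separate rapamycin alone from rapamycin with etoposide.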

Other observations

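The mitochondrial translation factors, which act on the ribosomes of mitochondria, were looked at too. Of 10 tested, 0 were higher and 5 lower in A375, with a median log2 fold change of -0.23. Among all genes in A375, 14.3% were higher and 13.8% lower. In SK-MEL-28, 1 was higher and 0 lower, 10% called against 19% of all genes, with a median of -0.08. There 8.83% of all genes were higher and 10.1% lower. The difference from the cytosolic elongation factors was not tested. GFM2, a factor of ribosome recycling, had -0.35 ± 0.05 (adjusted p = 5.7e-04, edgeR) in A375 and -0.18 ± 0.06 (adjusted p = 0.055) in SK-MEL-28. MRRF, the ribosome recycling factor, was the one that rose in SK-MEL-28 (0.40 ± 0.07).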
